A study of Homo sapiens with 2 samples.

Results

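Protein synthesis in the cytosol is carried out by ribosomes built from a small and a large subunit, by initiation factors that bring the initiator tRNA and the mRNA to the small subunit, and by elongation factors that deliver each charged tRNA. The aminoacyl-tRNA synthetases join amino acids to their tRNAs. In cancer cells this machinery is known to respond to growth signals and to amino acid supply. The genes described here are those of cytosolic translation and tRNA charging: 37 of the 2007 genes in the deposited table of HT-29 cells. The rule that chose them used names and annotation and no ratios, but it was set with earlier results of these data known. A symbol beginning with RPL, RPS, EIF or EEF, or a gene ontology process term for translational steps, regulation of translation or tRNA aminoacylation, brought in 50 genes, and 13 of these were left out for terms of the mitochondrion, RNA splicing or mRNA processing, or by name as small RNA, stress response or kinase genes. Of the 37 members, 22 entered by symbol and 15 by a process term alone. Values of 34 members are given one by one; the others are included in counts over all members only.

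HT-29 is a human colon adenocarcinoma line with epithelial features, and RNA sequencing was used to ask which transcripts differ when GPR126, an adhesion G protein-coupled receptor now named ADGRG6, is depleted. One group was a scramble control and the other carried a short hairpin RNA for GPR126 knockdown, with 1 library each. The labels do not give the hairpin sequence, the time after transduction or transfection, or whether a clone or a pool was used. The library totals, recovered from the deposited counts and scaled values, were 5753320 reads for the scramble control and 6010192 for the knockdown. No source used here states whether these are sequenced, mapped or gene-assigned reads. GPR126 itself had 68 scramble reads and 2 knockdown reads. None of 10 intestinal epithelial markers was listed in the table, which holds only genes the authors called as different, so the level of these markers could not be read; of 11 leukocyte, fibroblast and endothelial markers only COL1A1 was listed, with 83 and 227 reads.

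The groups have no replicates, so no test was made. Every value below compares these 2 libraries. A fold is the ratio of reads after each count is divided by its library total, and the range in brackets is an exact 95% counting interval, which contains nothing of the variation between cultures. RPM means reads per 1e6 reads of the library total. The table was limited by its authors to ratios of 2-fold or more, so each member had to differ by that much to be present. In bulk RNA, fewer cells of a kind and less RNA per cell cannot be told apart.

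Ribosomal protein genes lay on both sides, the member initiation factors were all lower, and the synthetases were split. These directions are for scaling to the library total. With the median of the listed ratios set to 0, no member stayed 2-fold lower (0 in place of 26) and 9 of the 26 turned to slightly above 0. Because the table holds only genes past 2-fold and most are lower, that median had to lie about 2-fold lower or beyond. Setting it to 0 removes lower calls by the selection alone, so it cannot decide the direction. Of the 37 members 11 were at least 2-fold higher in the knockdown library, a share set against 33.2% of all listed genes, and 26 were at least 2-fold lower, against 66.7% of all listed genes. As shares of the members these are 29.7% and 70.3%, close to the background, so the direction of the members as a whole does not stand apart from the table. The median log2 ratio was -1.15 over the members and -1.16 over all listed genes. No member reached 4-fold, whereas 346 of the 2007 listed genes did. PPP1R15A, which matched the terms but was left out by name, was 5.51-fold higher (3.87 to 8.04). The members also had more reads, with a median of 802 in the scramble library against 149 over all listed genes. The part of read number in this contrast was not tested. Of the 37 members, 9 were higher with a counting interval wholly beyond 2-fold, against 329 of the 2007 listed genes (16.4%). Another 16 were lower with such an interval, against 664 (33.1%). This limit was chosen after the data were seen. An interval is narrower with more reads, and the part of read number in these counts was not tested. All 37 members reached at least 1 RPM in 1 of the libraries, as did all 2007 listed genes. No member had 0 reads in either library.

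**Figure D1:**
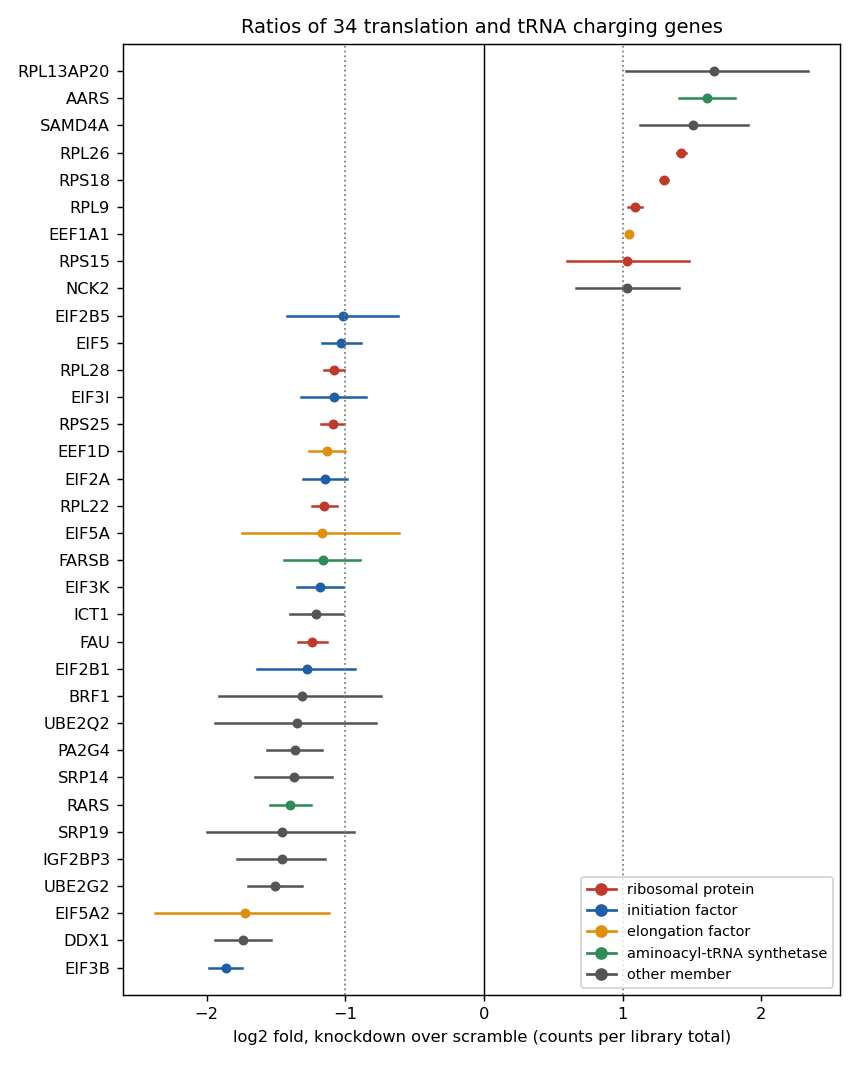
Log2 fold of knockdown over scramble for each of 34 members, ordered by ratio and coloured by role. Points are the ratios of counts scaled to the library totals, lines are 95% counting intervals, and dotted lines mark 2-fold; the 25 lower genes shown run from EIF3B at 3.64-fold to EIF2B5 at 2.02-fold, and the 9 higher ones from NCK2 at 2.04-fold to RPL13AP20 at 3.16-fold.

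The members differed widely in how many reads they had. In the scramble library they ranged from 27 to 22831 reads and in the knockdown library from 30 to 49265. Together the 34 took 1.41% of the scramble library and 2.31% of the knockdown library. The 9 higher genes among them went from 0.911% to 2.10% of the library and the 25 lower ones from 0.497% to 0.211%. The ribosomal protein genes and EEF1A1 held most of these reads.

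**Figure D2:**
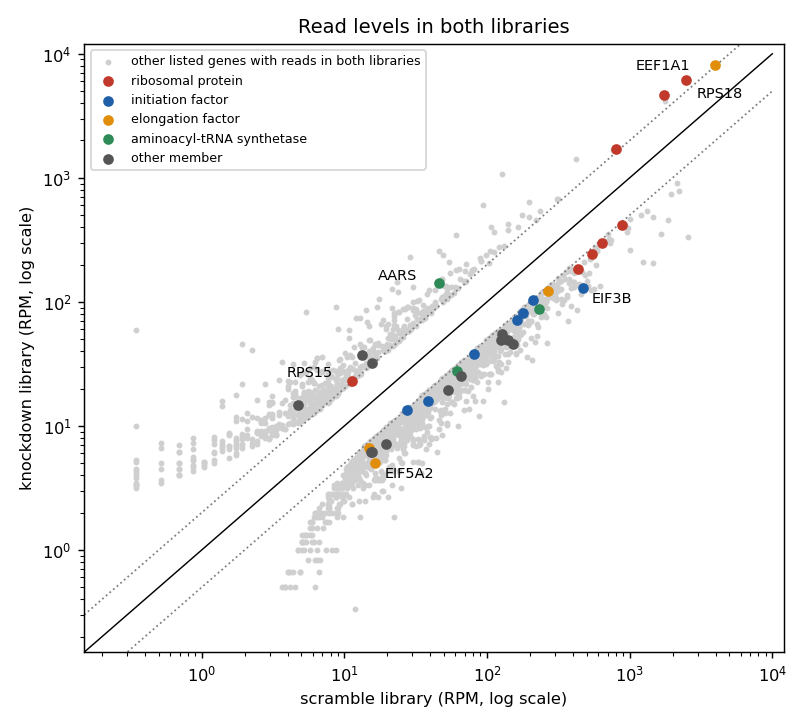
RPM in the scramble library (x axis, log scale) and the knockdown library (y axis, log scale). Grey points are other listed genes with reads in both libraries, coloured points are 34 members, the solid line is equality and the dotted lines mark 2-fold; the gap between the dotted lines is empty because the table holds only genes past 2-fold, and 4 of the 8 ribosomal protein genes shown and EEF1A1 lie above it.

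Many mRNAs of ribosomal proteins and elongation factors are known to begin with a C followed by a run of pyrimidines, the 5′ terminal oligopyrimidine (TOP) tract, through which mTOR and the RNA-binding protein LARP1 control their translation. The windows below are shown because they cover the starts of genes that moved in opposite directions. They run from 20 bases before to 10 bases from the annotated start onward, from RefSeq on GRCh38.p14, and capitals mark a start base C and the next 4 bases where all 4 are C or T. The first lines are genes that were higher in the knockdown library, the later ones genes that were lower.
EEF1A1, chr6:73521023-73521052, minus strand: cagtagtcgccgtgaacgttCTTTTtcgca
RPS18, chr6:33272055-33272084, plus strand: gatatcgcgtcacttccgctCTCTCttcca
RPL26, chr17:8383184-8383213, minus strand: accggaagcagcgtgtagttCTCTTccctt
RPL9, chr4:39458913-39458942, minus strand: tacaagtacgtaatgacgacagacgttctt
RPS15, chr19:1438376-1438405, plus strand: ataactgcgcaggcgcggaccaaagcgatc
RPL22, chr1:6199586-6199615, minus strand: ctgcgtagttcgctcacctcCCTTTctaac
RPS25, chr11:119018334-119018363, minus strand: ccgtttctgagcagcgcttcCTTTTtgtcc
RPL28, chr19:55385912-55385941, plus strand: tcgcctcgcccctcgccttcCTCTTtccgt
FAU, chr11:65122125-65122154, minus strand: tgacgcgccctcgcttcttcCTCTTtctcg
EIF3K, chr19:38619168-38619197, plus strand: gtcgtttccgtttccaccacCTCTTcctgt
EIF2A, chr3:150546767-150546796, plus strand: aactctcacccgagcggtttCTCTTtccgg

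Promoter entries matched 32 of the 37 members; EEF1D and RPL13AP20 were among those without one. The start pattern, searched at the annotated start and on the sense strand only, was present in 7 of 9 ribosomal protein and EEF1A1 genes and in 2 of 23 other members, EIF3K and EIF2A. It was present in 5.14% of 27305 RefSeq genes with an entry and in 6.95% of the listed genes with one. Genes with the pattern were found in both directions: 3 of 8 higher members with an entry and 6 of 24 lower ones had it. RPL9 and RPS15 did not have it at the annotated start, which says only that these letters are not at that position.

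Within the small subunit, 4 genes were higher and 3 lower in the knockdown library, against 33.2% and 66.7% of all listed genes. RPS18, a protein of the head of the small subunit, had 14347 reads in the scramble library against 36894 in the knockdown library, 2.46-fold higher (2.41 to 2.51). Its counting interval was narrow and lay past 2-fold. RPS15 was also listed as higher but from only 65 and 139 reads, at 2.05-fold (1.51 to 2.79), so its interval reached below 2-fold. On the lower side FAU, which encodes the small subunit protein S30 fused to a ubiquitin-like protein, had 2496 reads against 1106, 2.36-fold lower (2.20 to 2.53). RPS25, known to be needed for initiation at some viral internal entry sites, had 3656 reads against 1792, 2.13-fold lower (2.01 to 2.26). Genes with many reads were thus found in each direction.

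The large subunit was split as well, with 2 genes higher and 2 lower, against 33.2% and 66.7% of all listed genes. RPL26, a protein of the large subunit, had 10074 reads in the scramble library against 28224 in the knockdown library, 2.68-fold higher (2.62 to 2.74). RPL9 had 4635 reads against 10296, 2.13-fold higher (2.05 to 2.20). RPL22 had 3113 reads against 1463, 2.22-fold lower (2.09 to 2.37); in mice it is known to be needed for T cell development. RPL28 had 5103 reads against 2520, 2.12-fold lower (2.02 to 2.22). The pseudogene RPL13AP20, a copy of the large subunit gene RPL13A, had 27 reads against 89, 3.16-fold higher (2.03 to 5.05), while RPL13A itself was not listed.

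The direction of the lower ribosomal protein genes is given for scaling to the library total. With the median of the listed ratios set to 0, a shift forced by the selection of the table, RPL22, RPS25 and RPL28 had log2 ratios of 0.0075, 0.068 and 0.079. The order of the genes relative to each other does not depend on scaling, because a ratio of genes within 1 library has no scaling in it. The 4 higher ribosomal protein genes described above together had 2.03 reads for each read of the 4 lower ones in the scramble library and 10.98 in the knockdown library, a 5.42-fold shift (5.25 to 5.59). RPS18 had 3.92 reads per RPS25 read in the scramble library and 20.6 in the knockdown library, a shift of 5.25-fold (4.94 to 5.57). RPL26 had 1.97 reads per RPL28 read in the scramble library and 11.2 in the knockdown library, a shift of 5.67-fold (5.38 to 5.98). The proteins of each pair belong to the same ribosomal subunit, and their reads were divided unequally between the libraries. Because the table holds only genes past 2-fold, any higher gene set against any lower one gives a shift of about 4-fold or more by the selection alone, so these shifts are a description, and the pairs were chosen after their values were seen.

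**Figure D3:**
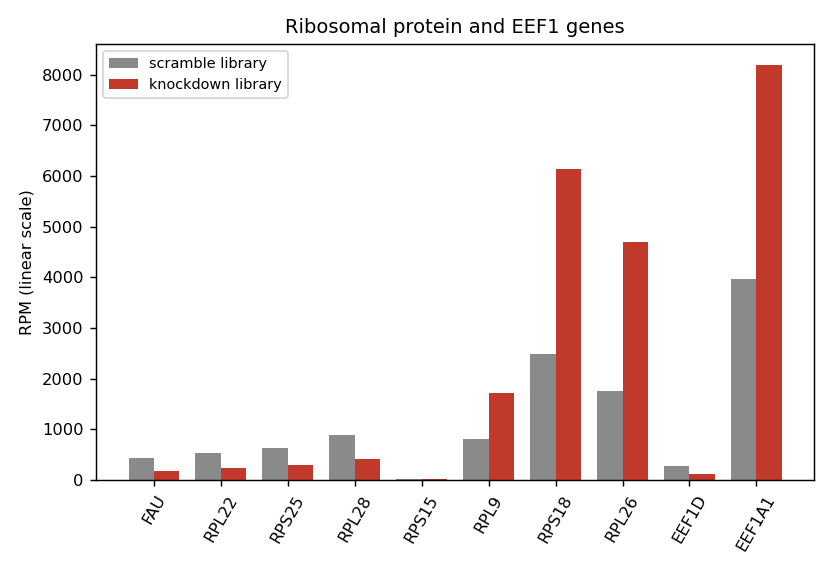
RPM (linear scale from 0) of 8 listed ribosomal protein genes, EEF1D and EEF1A1, with 1 bar for the scramble library and 1 for the knockdown library. FAU, RPL22, RPS25, RPL28 and EEF1D have the taller bar in the scramble library and the other genes in the knockdown library; the RPS15 bars, at 11.3 and 23.1 RPM, are close to the axis.

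The fixed lists hold 88 genes for cytosolic ribosomal proteins, paralogs included, and 77 of them were not listed. The 8 described here took 0.756% of the scramble library and 1.37% of the knockdown library. Among them the 4 higher genes went from 0.506% to 1.26% and the 4 lower genes from 0.250% to 0.114%. These genes have many retrocopies in the genome. By name, GENCODE release 29 holds 17 pseudogenes of RPL9, 14 of RPL26, 5 of RPS18 and 2 of RPS15 among the higher genes. Among the lower genes it holds 22 of RPL22, 2 of FAU, 1 of RPS25 and none of RPL28. No source used here states how reads shared between copies were assigned, and the part of these copies in the ratios was not tested.

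The elongation factors also lay on both sides, with EEF1A1 higher and EEF1D, EIF5A and EIF5A2 lower. Over all listed genes 33.2% were higher and 66.7% lower. EEF1A1, which carries aminoacyl-tRNA to the ribosome, had 22831 scramble and 49265 knockdown reads and went from 3968 to 8197 RPM, a 2.07-fold difference (2.03 to 2.10). EEF1D, a subunit of the exchange complex that reloads EEF1A with GTP, had 1551 reads against 739, 2.19-fold lower (2.01 to 2.40). EEF1A1 thus went from 14.7 to 66.7 reads per EEF1D read, a shift of 4.53-fold (4.14 to 4.95). GENCODE holds 39 pseudogenes named after EEF1A1 and 8 named after EEF1D. EIF5A, the hypusine-containing factor that helps the ribosome through proline stretches, had 86 reads against 40, 2.25-fold lower (1.53 to 3.36). Its paralog EIF5A2 had 95 reads against 30, 3.31-fold lower (2.17 to 5.17). EIF5A had 0.905 reads per EIF5A2 read in the scramble library and 1.33 in the knockdown library, and the counting interval of that shift, 0.845 to 2.57, included 1. The proteins are similar in sequence, and no source used here states how reads shared by the genes were counted.

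All 9 members with an EIF symbol were lower in the knockdown library when scaled to the library total, while 66.7% of all listed genes were. With the median scaling, 5 of the 9 (EIF5A, EIF2A, EIF3I, EIF5 and EIF2B5) had log2 ratios of 0.0018 to 0.15. The table lists 2 further genes under an EIF symbol that are not members: EIF4A3, a helicase of the exon junction complex with 2104 reads against 687, 3.20-fold lower (2.93 to 3.49), and EIF2C2, the Argonaute gene AGO2, with 64 against 30. The log2 ratios of the 9 members, scaled to the library total, ran from -1.86 to -1.01, with a median of -1.16 that equals the table's median to 2 decimals. The counting interval lay wholly beyond 2-fold for 3 of the 9, against 664 of the 1339 lower listed genes. In all the 9 members had 6906 scramble and 2791 knockdown reads.

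The eIF3 complex, the largest initiation factor and a scaffold on the small subunit, held the lowest ratio of all members. EIF3B, the core subunit around which the complex is organised, had 2695 reads in the scramble library against 774 in the knockdown library, 3.64-fold lower (3.36 to 3.95). EIF3I, a WD-repeat protein that binds EIF3B, had 467 reads against 230, 2.12-fold lower (1.81 to 2.49). EIF3K, a peripheral subunit, had 930 reads against 428, 2.27-fold lower (2.02 to 2.55). The counting interval of EIF3B did not overlap those of EIF3I and EIF3K, but these intervals contain nothing of the variation between cultures. Of the 14 genes of the eIF3 list 11 were not listed.

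The members that load the initiator tRNA or act at the start codon lay between 2.02-fold and 2.43-fold lower. EIF2B1, the alpha subunit of the exchange factor that reactivates eIF2 and is inhibited when eIF2 is phosphorylated under stress, had 223 reads against 96, 2.43-fold lower (1.90 to 3.12). EIF2B5, its catalytic epsilon subunit, had 157 reads against 81, 2.02-fold lower (1.54 to 2.68). EIF5, the GTPase activator of eIF2 at the start codon, had 1218 reads against 624, 2.04-fold lower (1.85 to 2.25). EIF2A, which despite its name is not a subunit of eIF2 and can bring initiator tRNA to some mRNAs, had 1035 reads against 488, 2.22-fold lower (1.99 to 2.47). For these 4 genes the counting interval reached below 2-fold. Among the 1339 lower listed genes it lay wholly beyond 2-fold for 664. No gene for an eIF2 subunit, EIF2S1, EIF2S2 or EIF2S3, was listed.

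Of 24 genes for cytosolic aminoacyl-tRNA synthetases and their scaffold proteins, 3 were listed and 1 was higher, against 33.2% of all listed genes. AARS, the alanyl-tRNA synthetase now named AARS1, had 267 reads in the scramble library against 851 in the knockdown library, 3.05-fold higher (2.66 to 3.51). RARS, the arginyl-tRNA synthetase (RARS1), had 1329 reads against 527, 2.63-fold lower (2.38 to 2.92). FARSB, the beta subunit of the phenylalanyl-tRNA synthetase, had 354 reads against 165, 2.24-fold lower (1.86 to 2.71). AARS thus went from 0.201 to 1.61 reads per RARS read, a shift of 8.04-fold (6.78 to 9.53). The remaining 21 genes of this list were not listed.

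Several synthetase genes, AARS1 among them, are known targets of the transcription factor ATF4, which binds a C/EBP-ATF response element with the core TGATGNAA. The 250 bases before the annotated start of AARS are shown because this is the 1 member with a promoter entry in which the core was found, on the opposite strand, in capitals, beginning 187 bases before the start.
AARS, chr16:70289507-70289756, minus strand, GRCh38.p14: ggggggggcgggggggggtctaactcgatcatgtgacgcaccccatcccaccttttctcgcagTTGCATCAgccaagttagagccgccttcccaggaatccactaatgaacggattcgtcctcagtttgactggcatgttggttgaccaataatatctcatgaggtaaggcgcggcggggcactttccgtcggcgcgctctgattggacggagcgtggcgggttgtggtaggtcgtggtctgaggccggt
The core, searched on both strands of the 300-base windows, was present for 4.46% of RefSeq genes and 2.50% of the listed genes with an entry. A match of this length is a description of the sequence and not of binding.

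Regulators of translation among the members were few. IGF2BP3, an RNA-binding protein of fetal tissue and many carcinomas, had 308 reads in the scramble library against 117 in the knockdown library, 2.75-fold lower (2.22 to 3.43). SAMD4A, the homolog of the fly translational repressor Smaug, had 76 reads against 226, 2.85-fold higher (2.19 to 3.74). PA2G4, a growth-regulated protein that binds ribosomes, had 725 reads against 294, 2.58-fold lower (2.25 to 2.96). DDX1, a DEAD-box helicase of the tRNA ligase complex, had 870 reads against 273, 3.33-fold lower (2.90 to 3.83).

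Some members entered through process terms that touch translation indirectly. SRP14, which with SRP9 pauses elongation during targeting to the endoplasmic reticulum, had 378 reads against 153, 2.58-fold lower (2.13 to 3.13), and SRP19 of the same particle, with 113 and 43 reads, was 2.75-fold lower (1.92 to 3.997). Both signal recognition particle genes were on the lower side, as were 66.7% of all listed genes. The ubiquitin-conjugating enzymes UBE2G2, with 802 and 295 reads, and UBE2Q2, with 90 and 37, carry a protein modification term and were 2.84-fold (2.48 to 3.26) and 2.54-fold (1.71 to 3.83) lower. BRF1, a subunit of the RNA polymerase III factor that starts tRNA gene transcription, had 88 reads against 37, 2.48-fold lower (1.67 to 3.75). ICT1, now MRPL58, is a mitochondrial ribosome protein whose component terms in the table do not name the mitochondrion; with 728 and 329 reads it was 2.31-fold lower (2.03 to 2.64). NCK2, a signalling adaptor, had 90 reads against 192, 2.04-fold higher (1.58 to 2.65). Of the 10 members in no role list, RPL13AP20, DDX1 and PA2G4 included, 8 were lower and 2 higher, against 66.7% and 33.2% of all listed genes.

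The rest of the pathway was read from fixed lists of 246 genes in 9 roles. Of these 40 were listed, 12 higher and 28 lower, against 33.2% higher and 66.7% lower over all listed genes, with a median log2 ratio of -1.15; 27 are members and 13 are not. Among the 13, 10 were lower and 3 higher, to be read against the same background. DDX3X, a helicase that helps initiation on structured mRNAs, had 2649 reads against 823, 3.36-fold lower (3.11 to 3.64). MCTS1, a reinitiation factor, had 643 reads against 206, 3.26-fold lower (2.78 to 3.83). CDC123, which assembles eIF2, was 2.40-fold lower (2.14 to 2.69), and the nuclear cap-binding protein NCBP1 was 2.43-fold lower (2.05 to 2.89). ABCE1, which splits ribosomes after termination, had 941 reads against 459, 2.14-fold lower (1.91 to 2.40). DPH2, which takes part in the diphthamide modification of EEF2, was 2.77-fold lower (2.04 to 3.79). The control genes ABCF2, RBM3, SECISBP2 and ABCF3 were between 2.33-fold and 3.11-fold lower.

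Of the genes that act on the TOP tract, LARP1 was not listed. The kinase gene MTOR was listed but is not a member, because its component terms name the mitochondrion; with 357 reads against 150 it was 2.49-fold lower (2.05 to 3.03), and it was singled out after its value was seen.

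The 3 higher genes of the fixed lists that are not members were regulators or accessory factors. GTPBP2, known in mice for the rescue of stalled ribosomes, had 312 reads in the scramble library against 1259 in the knockdown library, 3.86-fold higher (3.41 to 4.39). PDCD4, an inhibitor of the helicase EIF4A, had 40 reads against 128, 3.06-fold higher (2.13 to 4.49). CPEB4, which binds the 3′ ends of mRNAs to control their translation, had 38 reads against 112, 2.82-fold higher (1.94 to 4.19). In the eIF4 list 18 of 20 genes were not listed, among them EIF4E, EIF4G1 and PABPC1. None of the 4 eIF2 kinases EIF2AK1 to EIF2AK4 was listed, and none of the 3 cap-binding inhibitors EIF4EBP1 to EIF4EBP3.

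**Figure D4:**
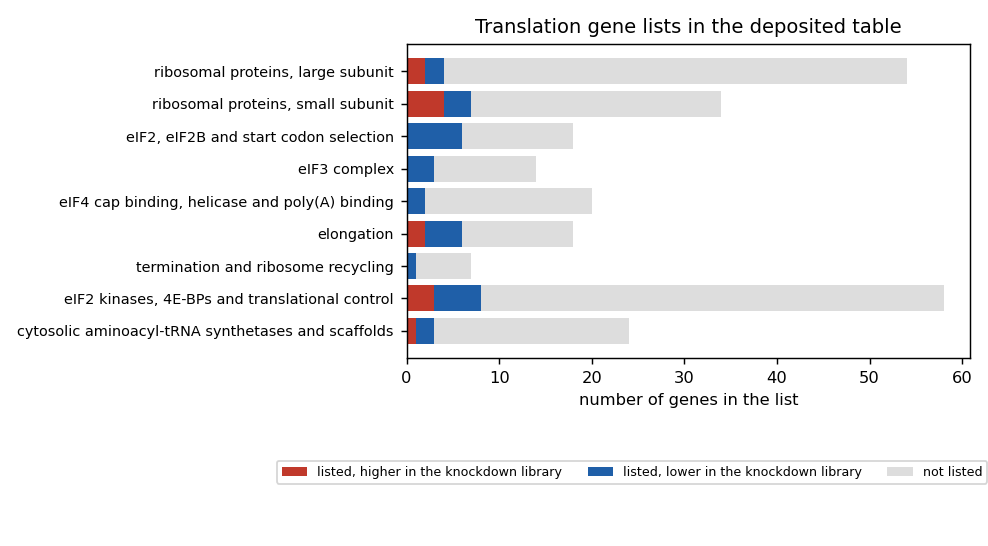
Number of genes in each of the 9 fixed lists of translation genes that were listed as higher, listed as lower or not listed in the deposited table. Scaled to the library total, the lists for eIF2 and start codon selection (6 of 18) and eIF3 (3 of 14) hold lower genes only. The list for eIF4 cap binding, helicase and poly(A) binding holds 2 of 20, DDX3X and NCBP1, both lower. The large and small ribosomal subunit lists hold 2 and 4 higher genes beside 2 and 3 lower ones. These small counts are to be read against 33.2% higher and 66.7% lower over all listed genes.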

How the data were processed

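RNA from HT-29 cells was sequenced with standard Illumina libraries, per the labels' protocols, with 1 library for the scramble control and 1 for the GPR126 knockdown. No source used here names the aligner, counter, strand setting, annotation or genome build. The authors deposited 1 table of 2007 genes with a read count per gene and library. The column headed TPM is, per the file headers and values, an RPM value: every count above 0 divided by 1 library total and multiplied by 1e6 gives it within 0.005 (100% of values), with no gene length, and the authors entered 0.01 for a count of 0. The authors' deposited log2 ratio, p-value and FDR complete the table; its smallest absolute log2 ratio is 1 and its largest FDR 0.000999, and these columns support nothing here.

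Library totals were recovered from the counts and RPM values. Log2 ratios used 0.5 reads added to each count. Folds used no pseudocount, with exact Clopper-Pearson 95% intervals given the summed count, and an exact conditional odds ratio interval was used for ratios of genes. Intervals cover counting error only. The interval calculation was tested on simulated counts.

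Members and gene lists were chosen with earlier results of these data known. The genes named were GPR126, the 6 members with the largest ratios of each role list, the 10 largest outside the lists, the 5 with the most reads in each library, and listed genes of the fixed lists. PPP1R15A, EIF4A3, EIF2C2 and MTOR were also named and fall outside this rule. COL1A1 is from the cell type markers. A few members are not reported here individually. Identifiers matched RefSeq names for 2004 of 2007 genes. Alternatives covered the pseudocount, scaling, floor, fold limit and membership. Computation used scipy 1.17.1, pandas 2.3.3 and numpy 2.4.6 under Python 3.11.15, and plots matplotlib 3.10.9.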

Additional observations from a re-analysis of the deposited data

How the results depend on the processing

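No paired analysis was possible because the groups hold a single library each, and no library could be left out. Scalings computed from the listed genes raised every ratio, by a log2 of 1.16 (median), 1.005 (trimmed mean) or 0.71 (upper quartile), so no higher member could reverse. In that order they left 0, 0 and 3 members 2-fold lower in place of 26, gave a median over the members of 0.0075, -0.15 and -0.45, and left 122, 170 and 301 of the 1339 listed genes 2-fold lower. With the median scaling, 9 members turned to slightly above 0: EIF5A (0.0018), RPL22 (0.0075), EIF2A (0.013), EEF1D (0.028), RPS25 (0.068), EIF3I (0.076), RPL28 (0.079), EIF5 (0.13) and EIF2B5 (0.15). In a table of genes past 2-fold, most of them lower, the median had to lie about 2-fold lower or beyond. Centring on it removes lower calls by the selection, so scalings computed from listed genes only cannot decide the direction. The statements that initiation factors and 5 ribosomal protein genes were lower are given for scaling to the library total. The opposite order of the genes does not depend on it. A 4-fold limit left 0 members higher and 0 lower, against 174 and 172 listed genes. Members by symbol or tRNA aminoacylation term only were 9 higher and 16 lower. Chosen after seeing the data, an interval wholly beyond 2-fold left 9 higher and 16 lower members, against 329 and 664 listed genes. Pseudocounts of 0.05 and 5 reads kept all 37 members inside their counting intervals. With 5 reads added, 9 members were 2-fold higher and 25 lower: EIF2B5 (-0.98), NCK2 (0.99) and RPS15 (0.98) no longer reached 2-fold. Removing the floor, or a 1.5-fold limit, says nothing, since the table starts at 2-fold and above 1 RPM.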
